A study of Mus musculus with 4 samples.

Results

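The genes described here are 37 mouse genes of the unfolded protein response and of the machinery that moves proteins into the endoplasmic reticulum (ER) and folds them there. They are a list of gene symbols drawn up by function, with earlier results of these data known but no measured value in the rule, and all 37 were found among the 24369 genes listed in each library and passed the filter on low counts that left 14143 genes for testing. In 4 RNA-seq libraries of CD4 T cells, none of the 37 passed the test for a difference between cells given Tox and cells given an empty vector. In the main test 0 of the 14143 genes passed, so Tox itself did not pass either, and this outcome is not particular to the 37. The difference that ran through most of the 37 genes was between replicates. It was larger in the empty vector group, where replicate 1 was the lowest of the 4 libraries for 30 of the 37 genes.

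Naive CD4 T cells from the spleens of wild-type C57BL/6 mice were activated with antibodies to CD3 and CD28 in the presence of IL-2 and without cytokines that polarize toward a helper subset. They were transduced on day 2 with a retrovirus encoding GFP alone (empty vector, EV RV) or Tox together with GFP (Tox RV). On day 5 they were restimulated and sorted for GFP. For the restimulation, the study's methods name anti-CD3 for 5 hours, and its results name anti-CD3 with anti-CD28. Each group comprised 2 libraries from 2 mice, and the comparison asks which genes change with Tox, an HMG-box transcription factor, outside of any helper lineage. Tox was driven by the retroviral vector in cells that were already activated, and the age of the mice used for RNA-seq is not given in the sources used here.

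Depth ranged from 46989997 to 74548723 expected counts, the RSEM estimates of fragments per gene. The counts were scaled to CPM (counts per 1000000 in the library) with TMM factors to compare libraries, and TPM, which also divides by length, was used to compare genes. Tox measured 11.7 CPM in replicate 1 and 5.73 CPM in replicate 2 of EV RV, against 121 and 99.9 CPM with Tox RV, so each library fell on the side its label gave. Summed over the 5 T cell markers listed, the level was 1212 to 1710 CPM in the 4 libraries. Of 5 NK cell markers, the defining gene Ncr1 was at 0 in every library, and the sum was 132 and 121 CPM in EV RV and 100 and 78.2 CPM in Tox RV, most of it from Eomes (71.2 to 109 CPM). That of 2 CD8 T cell markers was 3.88 to 4.77 CPM, and that of 7 myeloid markers was 4.65 to 6.21 CPM. For 7 markers of B cells and plasma cells, the sum was 4.14 to 6.09 CPM. The 45S pre-ribosomal RNA, Rn45s, took 24.7% of the counts of EV RV replicate 1 and 7.14% to 11.97% of those of the other 3 libraries.

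As background, proteins bound for secretion or for membranes enter the ER through the Sec61 channel as they are made, lose their signal peptide to signal peptidase, receive N-linked sugars from the oligosaccharyltransferase, and are folded by chaperones and disulfide isomerases. When unfolded protein builds up, the sensors encoded by Ern1 (IRE1), Eif2ak3 (PERK) and Atf6 raise the transcription of folding and degradation genes, and IRE1 does so by cutting Xbp1 RNA so that an active transcription factor can be made. Activated lymphocytes enlarge this machinery as they begin to secrete, which is best known from plasma cells.

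The site that IRE1 cuts is shown first, since it is the regulatory sequence at the head of the pathway. Xbp1 lies at chr11:5520659-5525893 of mm10 on the plus strand. In its transcript of GENCODE M21, an intron of 26 bases lies inside the coding sequence at positions 815 to 840 of 2129, and its removal shifts the reading frame. The capitals mark that intron and the lower case the 20 bases on each side.
Xbp1 site: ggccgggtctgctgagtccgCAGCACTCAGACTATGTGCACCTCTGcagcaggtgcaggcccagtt

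The promoters of the target genes hold sequences through which ATF6 and XBP1 are known to act, and 28 of the 37 genes had a RefSeq promoter window (GRCm38.p6, 250 bases before to 50 after the start of the gene). The genes without one were Atf6, Derl1, Hyou1, Manf, Ostc, Sec11c, Sec61a1, Spcs3 and Ssr2. Both strands were searched for the ER stress response element ERSE, CCAAT and CCACG separated by 9 bases. It was found in 6 of the 28 (21.4%), against 39 of all 32851 promoter windows (0.119%) and 19 of the 10628 genes tested here that had a window (0.179%). The 6 were Pdia6, Calr, Canx, Creld2, Syvn1 and Derl3.

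Windows around the element are printed for 2 chaperone genes and Pdia6, which were low in EV RV replicate 1, for Syvn1, which was high in that library, and for Herpud1, which holds the related ERSE-II (ATTGG and CCACG separated by 1 base). The capitals mark the element, and each window is given on the strand of its gene. Those of Calr and Creld2 hold the element on the other strand, so that it reads there with CGTGG first and ATTGG last.
Pdia6, chr12:17266466-17266534, plus strand: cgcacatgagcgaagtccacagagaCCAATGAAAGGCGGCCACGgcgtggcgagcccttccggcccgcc
Calr, chr8:84847050-84847118, minus strand: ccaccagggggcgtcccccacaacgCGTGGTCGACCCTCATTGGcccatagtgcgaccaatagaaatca
Creld2, chr15:88819495-88819563, plus strand: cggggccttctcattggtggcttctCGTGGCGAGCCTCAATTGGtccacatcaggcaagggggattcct
Syvn1, chr19:6046507-6046575, plus strand: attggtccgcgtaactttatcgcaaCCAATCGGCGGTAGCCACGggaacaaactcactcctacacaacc
Herpud1, chr8:94386352-94386412, plus strand: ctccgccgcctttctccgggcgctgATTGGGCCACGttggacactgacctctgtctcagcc

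ERSE-II was found in the window of Herpud1 alone among the 28, in 12 of the 32851 windows (0.0365%) and in 0.0847% of genes tested with a window. The unfolded protein response element TGACGTGG and the cyclic AMP response element TGACGTCA were found in 0 of the 28, against 0.676% and 1.79% of all windows. Of genes tested with a window, 1.035% and 3.53% held them. With 28 genes, shares this low cannot show whether either element is scarce. The CCAAT box is also a piece of every ERSE and, on the other strand, of ERSE-II. By itself it was found in 22 of the 28 (78.6%), in 37.4% of all windows and in 42.5% of genes tested with a window. These matches describe letters in the windows and do not show that a factor is bound.

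**Figure D1:**
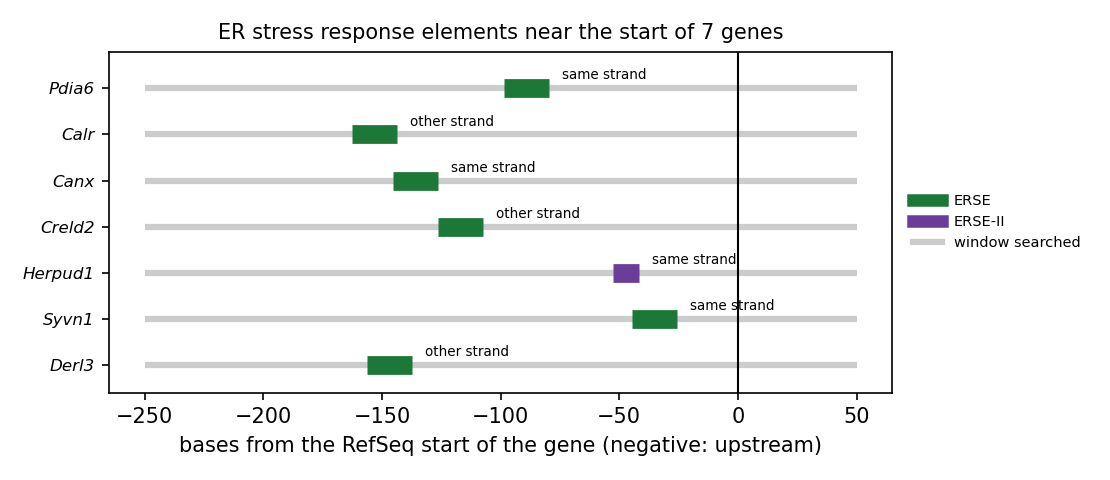
Position of the ERSE and ERSE-II matches in the promoter windows of 7 genes, in bases from the RefSeq start (vertical line at 0; grey bars, the window searched from 250 bases upstream to 50 downstream). The 7 matches lie between 162 and 26 bases upstream, with Calr the farthest and Syvn1 the nearest, and 3 of them (Calr, Creld2 and Derl3) are on the strand opposite to the gene.

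Levels per transcript spanned a wide range. Calr was the most abundant with a mean of 1002 TPM over the 4 libraries, followed by Sec61b (319 TPM), Pdia3 (308 TPM) and P4hb (302 TPM), whose ranges over libraries overlapped one another. In all, 20 of the 37 genes had a mean above 100 TPM. The 7 below 30 TPM were Derl3 (2.27 TPM), Ern1 (6.73 TPM), Atf6 (13.7 TPM), Derl2 (19.7 TPM), Eif2ak3 (22.8 TPM), Syvn1 (25.8 TPM) and Atf6b (26.0 TPM). Among the 37 genes, the sensors and Atf6b thus lay below every gene of folding and translocation, while Xbp1 was at 174 TPM. The 37 genes together made up 0.420% of all TPM in replicate 1 and 0.628% in replicate 2 of EV RV, and 0.531% and 0.611% in the corresponding libraries of Tox RV. With Rn45s left out of the total, these shares were 0.436%, 0.637%, 0.537% and 0.616%, so EV RV replicate 1 stayed the lowest. In bulk RNA, fewer cells that make much of a transcript and less of it per cell cannot be told apart.

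**Figure D2:**
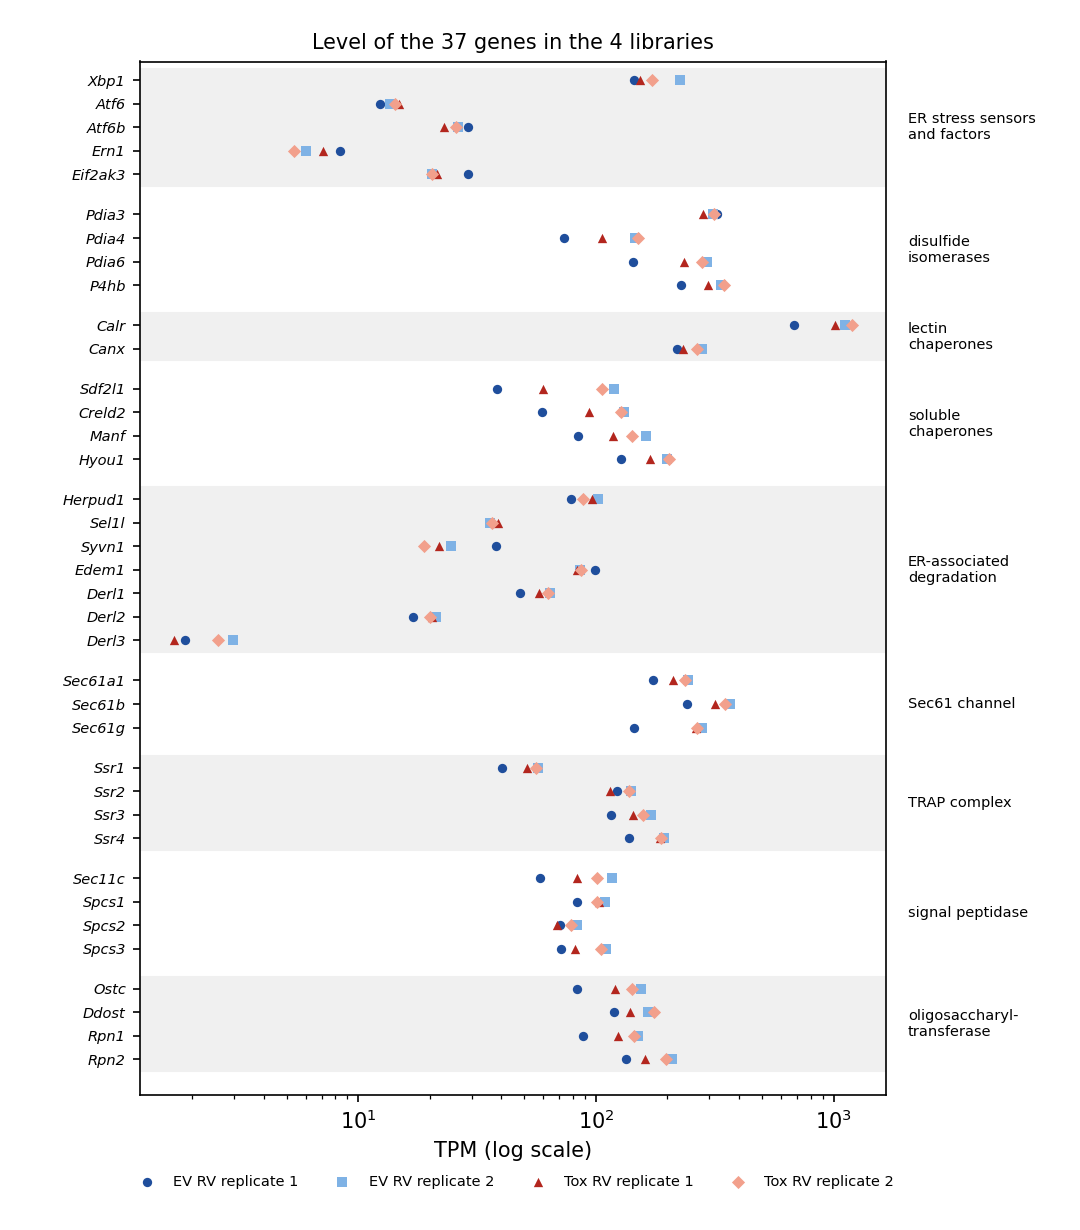
Level of each of the 37 genes in TPM (log scale) in the 4 libraries, ordered by role. Calr lies rightmost at a mean of 1002 TPM and Derl3 near the bottom of the axis at a mean of 2.27 TPM, and the dark blue circles of EV RV replicate 1 are the leftmost point for most chaperone and translocation genes.

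For Tox RV against EV RV, 0 of the 37 genes passed an adjusted p of 0.05 in edgeR's quasi-likelihood test, as was the case for all 14143 genes tested (0%), and 0 of 37 had an unadjusted p under 0.05, against 512 of all genes (3.62%). With DESeq2, the tool the study names, 24 genes passed (0.170%) and again 0 of the 37. DESeq2 also gave an unadjusted p under 0.05 for 0 of the 37. The smallest adjusted p of the 37 genes in edgeR was 0.897, a value several of them shared, and the smallest unadjusted p was 0.074, for Syvn1. The log2 fold changes ran from -0.51 (Syvn1) to 0.39 (Sec61g) with a median of 0.15, beside a median of 0.0036 over all genes tested. A positive value was found for 29 of the 37 (78.4%), against 50.4% of all genes. Scaling by library totals alone made 33 of 37 positive, but it also moved the median of all genes to 0.12, beside 0.26 for the 37 genes.

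The 95% interval of every one of the 37 fold changes held 0. In 27 of them it lay within 2-fold in either direction, so a larger change lay outside the interval. A rise of over 2-fold lay inside the interval for 8 genes, Pdia4, Pdia6, Calr, Sdf2l1, Creld2, Sec61g, Sec11c and Ostc, and a fall of over 2-fold for 3, Sdf2l1, Syvn1 and Derl3. These widths follow the replicates. The difference between the EV RV libraries was larger than that between the groups in 34 of the 37 genes (91.9%), against 71.5% of all genes tested. Both Tox RV libraries were above both EV RV libraries for 2 of the 37 genes, Atf6 and Sel1l, against 18.6% of all genes, and below both for 1, Syvn1, against 17.4%.

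The sign of the median depended on EV RV replicate 1. Which of the 2 EV RV libraries departed from the usual level was not tested. EV RV replicate 1 was the lowest of the 4 libraries for 30 of the 37 genes (81.1%), against 5239 of all 14143 genes (37%), and replicate 2 exceeded it in 32 of 37, with a median difference of 0.57 log2 units beside -0.0048 over all genes. It exceeded it by more than 0.5 log2 units in 22 of 37 genes, against 16.4% of all genes, and by more than 1 in 7, against 4.07%. Between the Tox RV libraries replicate 2 was higher in 29 of 37 (78.4%), against 49.5% of all genes. The median difference was 0.17, beside -0.0026 over all genes, so the shift was in the same direction as in EV RV and smaller. The 3 libraries other than EV RV replicate 1 lay within 0.5 log2 units of each other in 34 of the 37 genes, against 70.0% of all genes. These shares were not matched for level, and the median of mean TPM was 119 for the 37 genes and 11.4 for all genes tested.

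Without EV RV replicate 1, the median over the 37 genes was -0.10, with 6 positive and 31 negative, and 29 of the 37 changed sign. Without EV RV replicate 2 it was 0.51, with 32 positive and 5 negative, in a fit that rested on EV RV replicate 1 alone for its group. Without Tox RV replicate 1 or 2, the median was 0.25 or 0.078.

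Other genes moved with that library as well. EV RV replicate 1 had the highest share of Rn45s. Among the NK cell markers, Klrk1 was at 36.6 CPM in EV RV replicate 1 and 10.5 CPM in replicate 2, Klrd1 at 14.2 and 1.90 CPM, and Klrb1c at 1.09 and 0.184 CPM, while Eomes ran the other way, at 79.8 and 108.6 CPM. In Tox RV, replicate 1 was likewise the higher for Klrk1 (17.2 and 4.86 CPM), Klrd1 (10.2 and 1.99 CPM) and Klrb1c (0.696 and 0.193 CPM). Of the T cell markers, Cd3e was at 219 CPM in EV RV replicate 1 and 71.6 to 91.2 CPM in the other 3 libraries, and Thy1 at 525 CPM against 314 to 382 CPM, while Cd3d, Cd3g and Cd4 were within the range of the other 3. The part of these differences in the values of the 37 genes was not tested.

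**Figure D3:**
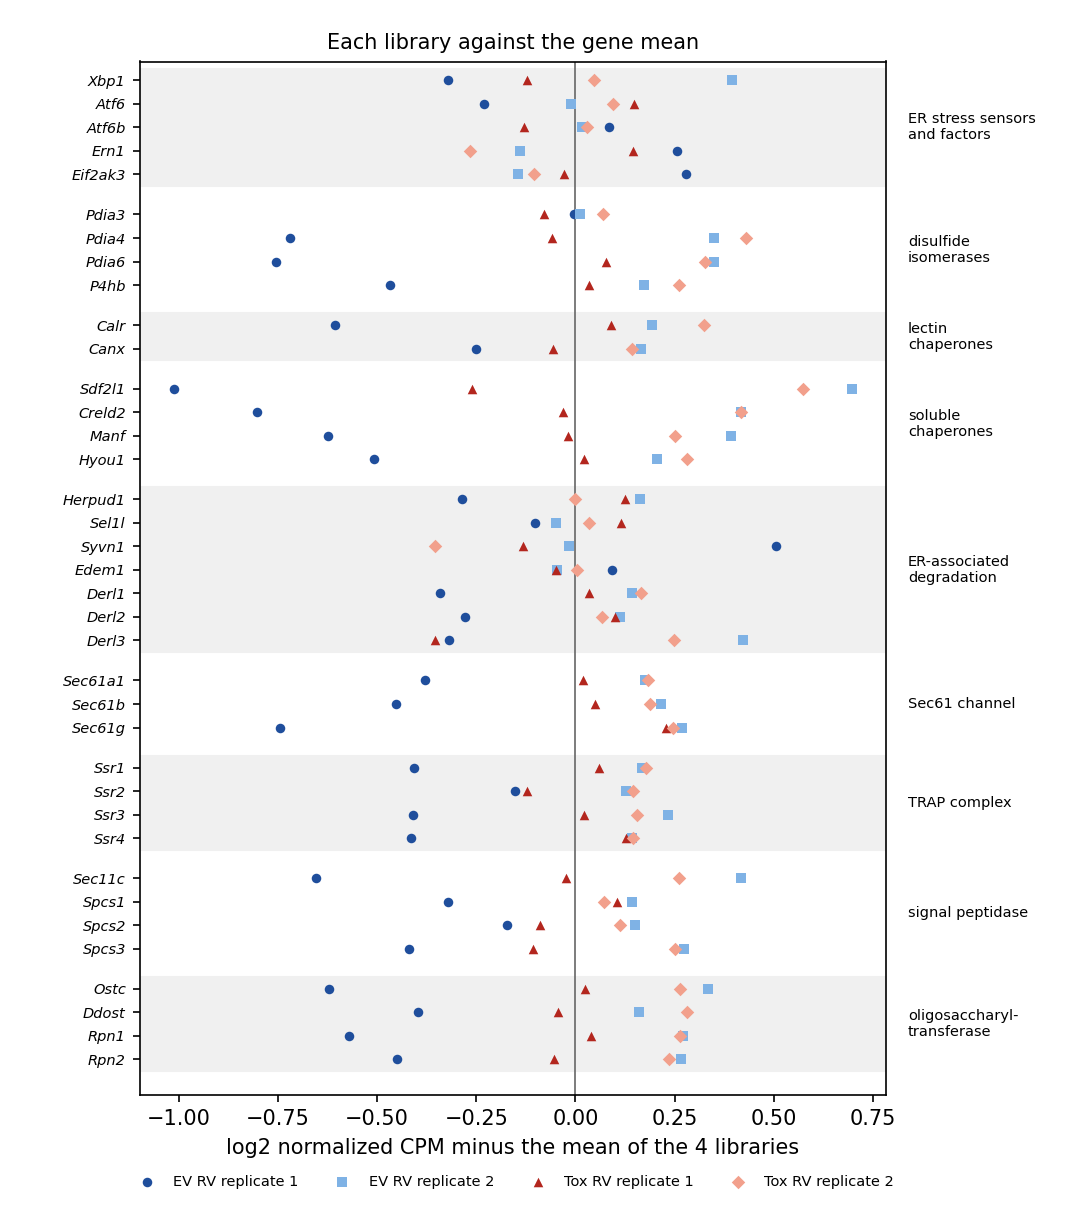
Log2 normalized CPM of each library minus the mean of the 4 libraries for the 37 genes, ordered by role (dark blue circles and light blue squares, EV RV replicates 1 and 2; dark red triangles and light red diamonds, Tox RV replicates 1 and 2). EV RV replicate 1 is the leftmost point in 30 of 37 genes and the rightmost in 5 (Atf6b, Ern1, Eif2ak3, Syvn1 and Edem1).

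Among the sensors and the transcription factors of the response, the pattern was mixed. Ern1, which encodes the kinase and nuclease IRE1, was at 19.2 and 14.6 CPM in EV RV and 17.7 and 13.3 CPM in Tox RV (log2 fold change -0.12, SE 0.24). Eif2ak3, which encodes PERK, the kinase that slows translation, was at 75.5 and 56.3 CPM in EV RV and 61.0 and 57.9 CPM in Tox RV (-0.15, SE 0.20). In both genes EV RV replicate 1 was the highest library, the reverse of its place among the chaperones.

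Atf6, a membrane-bound factor that is cut free under stress, was at 54.0 and 62.8 CPM in EV RV and at 70.2 and 67.6 CPM in Tox RV, so the groups did not overlap, with a log2 fold change of 0.24 (SE 0.17) and an adjusted p of 0.897. Its relative Atf6b was at 42.4 and 40.4 CPM in EV RV and 36.5 and 40.8 CPM in Tox RV (-0.10, SE 0.17). Xbp1 was at 182 and 300 CPM in EV RV and 210 and 236 CPM in Tox RV (-0.12, SE 0.27), with both Tox RV libraries between the EV RV libraries. With EV RV replicate 1 left out, its log2 fold change was -0.44, and with EV RV replicate 2 left out it was 0.29.

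Reads of Xbp1 were assigned to 2 transcript records, and the mean length of the transcripts RSEM counted for the gene, weighted by their estimated shares, was 2255.29 and 2256.42 bases in EV RV and 2256.95 and 2255.94 bases in Tox RV. The groups overlapped within a range of 1.66 bases. The share of Xbp1 RNA without the intron shown above was not computed, since lengths and counts of the separate records were not used here.

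The disulfide isomerases, which form and rearrange the bonds between cysteines, gave a median log2 fold change of 0.28 over 4 genes, 3 of them positive. Pdia3, which works with the lectin chaperones on glycoproteins and had the highest mean TPM of the group only through EV RV replicate 1, since P4hb was above it in the other 3 libraries, was at 486 and 491 CPM in EV RV and 461 and 512 CPM in Tox RV (-0.01, SE 0.16). It varied little among the 4 libraries, and the EV RV libraries were nearly equal. Pdia6 was at 169 CPM in EV RV replicate 1 and at 364 CPM in replicate 2, 2.15-fold apart, and at 302 and 358 CPM in Tox RV (0.31, SE 0.37). P4hb, the founding isomerase of the family, and Pdia4 had log2 fold changes of 0.27 and 0.29, and EV RV replicate 1 was the lowest library for both.

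The lectin chaperones hold newly glycosylated proteins by their sugars. Calr, the soluble member, was at 729 and 1268 CPM in EV RV and 1181 and 1391 CPM in Tox RV (0.36, SE 0.29, 95% interval -0.34 to 1.07). Both Tox RV libraries were near EV RV replicate 2, and leaving out replicate 1 brought the log2 fold change to 0.013. Canx, the membrane-bound member, had a log2 fold change of 0.074 (SE 0.20) with the same library lowest.

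The soluble chaperones and cofactors had the widest gap between the EV RV libraries, a median of 1.12 log2 units, beside a median log2 fold change between the groups of 0.21. Hyou1, a large chaperone that also exchanges nucleotide on BiP, was at 326 and 534 CPM in EV RV and 470 and 564 CPM in Tox RV (0.27, SE 0.27). Creld2, a secreted ER stress protein, was at 43.1 and 100 CPM in EV RV and 73.6 and 100 CPM in Tox RV (0.28, SE 0.41). Sdf2l1, a partner of BiP and its J-domain cochaperones that was singled out after its values were seen, was at 22.3 CPM in EV RV replicate 1 and at 73.0 CPM in replicate 2, 3.27-fold apart, the largest such gap of the 37. In Tox RV it was at 37.6 and 67.0 CPM, between the EV RV values, and its log2 fold change was 0.13 (SE 0.57). Manf, a secreted survival factor induced by ER stress, had a log2 fold change of 0.15 and a gap of 1.02 log2 units between the EV RV libraries.

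**Figure D4:**
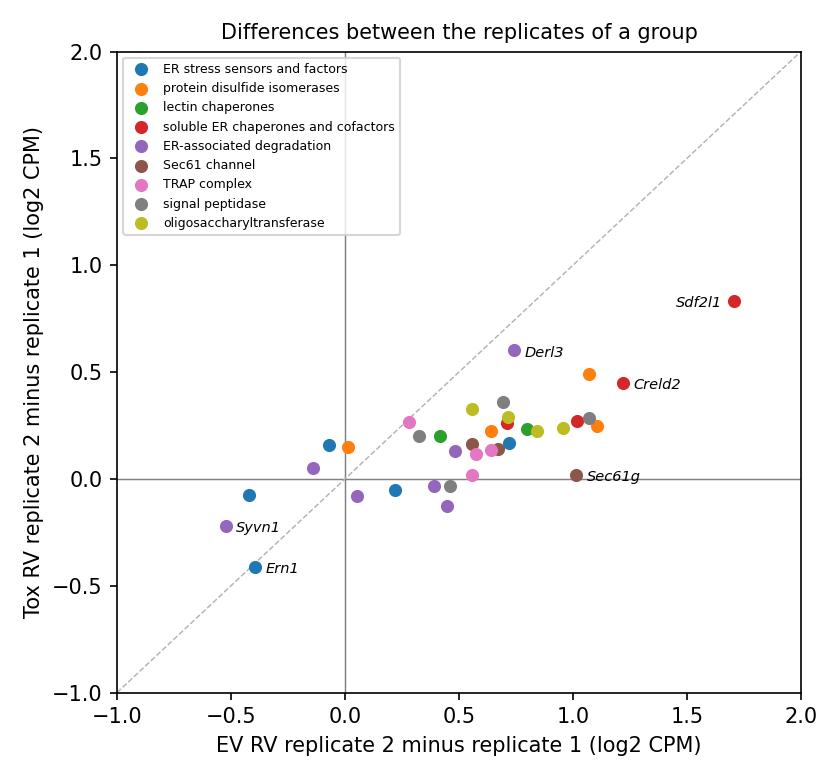
Difference between the replicates of Tox RV (vertical axis) against that between the replicates of EV RV (horizontal axis) for the 37 genes, in log2 CPM, colored by role; the dashed line marks equal differences. Most points lie right of 0 and below the line, with Sdf2l1 the farthest right at 1.71, and Syvn1 and Ern1 lie left of 0.

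The genes of ER-associated degradation, which pull misfolded proteins out of the ER for the proteasome, did not move together. Syvn1 encodes the ubiquitin ligase HRD1, and it was at 72.2 and 50.3 CPM in EV RV and 46.4 and 39.8 CPM in Tox RV. The Tox RV values were thus both below those of EV RV, by a log2 fold change of -0.51 (SE 0.23, 95% interval -1.08 to 0.07), with an unadjusted p of 0.074 and an adjusted p of 0.897. It stayed negative with each library left out in turn, as Atf6b also did, while Atf6, Calr and Sel1l stayed positive. For Syvn1 the values ran from -0.74 to -0.23, the weakest being that without EV RV replicate 1. Its exons share 91 bases with Mrpl49 on the opposite strand, and use of strand in the counting is not stated. The mean length of its counted transcripts was 3338.55 and 3390.85 bases in EV RV and 3399.85 and 3405.04 bases in Tox RV.

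Sel1l, the adaptor that holds HRD1 in its complex, was at 133 and 138 CPM in EV RV and 154 and 146 CPM in Tox RV (0.15, SE 0.16), so this partner of Syvn1 lay on the other side of 0; it was singled out after its values were seen. Herpud1, a stress-induced scaffold of the same complex, was at 81.1 and 111 CPM in EV RV and 108 and 98.7 CPM in Tox RV (0.11, SE 0.21). Edem1, which recognizes trimmed sugars on misfolded glycoproteins, had a log2 fold change of -0.05 (SE 0.16) and was highest in EV RV replicate 1. Of the derlins, membrane proteins of the exit path, Derl1 and Derl2 had log2 fold changes of 0.18 and 0.15. Derl3 was the lowest gene of all, with 56 to 169 counts per library, and its value of -0.13 carried an SE of 0.41. Derl2 shares 231 exon bases with Mis12 on the opposite strand.

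All 15 genes of protein entry and early processing, in the Sec61 channel, the TRAP complex beside it, signal peptidase and the oligosaccharyltransferase, had a positive log2 fold change, from 0.016 (Spcs2) to 0.39 (Sec61g), and all 15 were lowest in EV RV replicate 1. None passed the test. The direction of Ssr2 and Spcs2, both under 0.03, turned under 3 other scalings or units.

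In the Sec61 channel, Sec61b, a small subunit and the most abundant of the 3 genes, was at 58.5 and 93.1 CPM in EV RV and 82.9 and 91.2 CPM in Tox RV (0.20, SE 0.25). Sec61g, the other small subunit, was at 52.8 and 107 CPM in EV RV and 104 and 105 CPM in Tox RV (0.39, SE 0.33, 95% interval -0.44 to 1.22). Its 3 libraries other than EV RV replicate 1 were nearly equal, and without that library its log2 fold change was -0.04. The pore subunit Sec61a1 had a value of 0.18.

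In the TRAP complex, which helps some signal peptides open the channel, Ssr4 was at 51.4 and 75.7 CPM in EV RV and 74.8 and 75.8 CPM in Tox RV (0.24, SE 0.23), and Ssr1, Ssr2 and Ssr3 lay between 0.02 and 0.21. In signal peptidase, Spcs1, an accessory subunit, was at 43.6 and 60.1 CPM in EV RV and 58.6 and 57.3 CPM in Tox RV (0.16, SE 0.21). The catalytic subunit Sec11c had a value of 0.15 and a gap between the EV RV libraries of 1.07 log2 units, and Spcs3 had a value of 0.11. Spcs1 shares 252 exon bases with Glt8d1 on the opposite strand.

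In the oligosaccharyltransferase, Rpn2 was at 205 and 337 CPM in EV RV and 270 and 330 CPM in Tox RV (0.14, SE 0.28). Rpn1, which binds newly made chains beside the catalytic subunit, was at 184 and 330 CPM in EV RV and 281 and 328 CPM in Tox RV (0.24, SE 0.30). In both, the Tox RV libraries lay between the EV RV libraries. Ddost, a core subunit, and Ostc, which joins the enzyme to the channel, had values of 0.22 and 0.21, again with EV RV replicate 1 lowest. Overlaps of exons with a gene on the opposite strand were also found for Pdia3, Pdia6, Spcs3, Rpn1 and Rpn2, from 18 bases in Pdia3 to 242 bases in Rpn2.

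**Figure D5:**
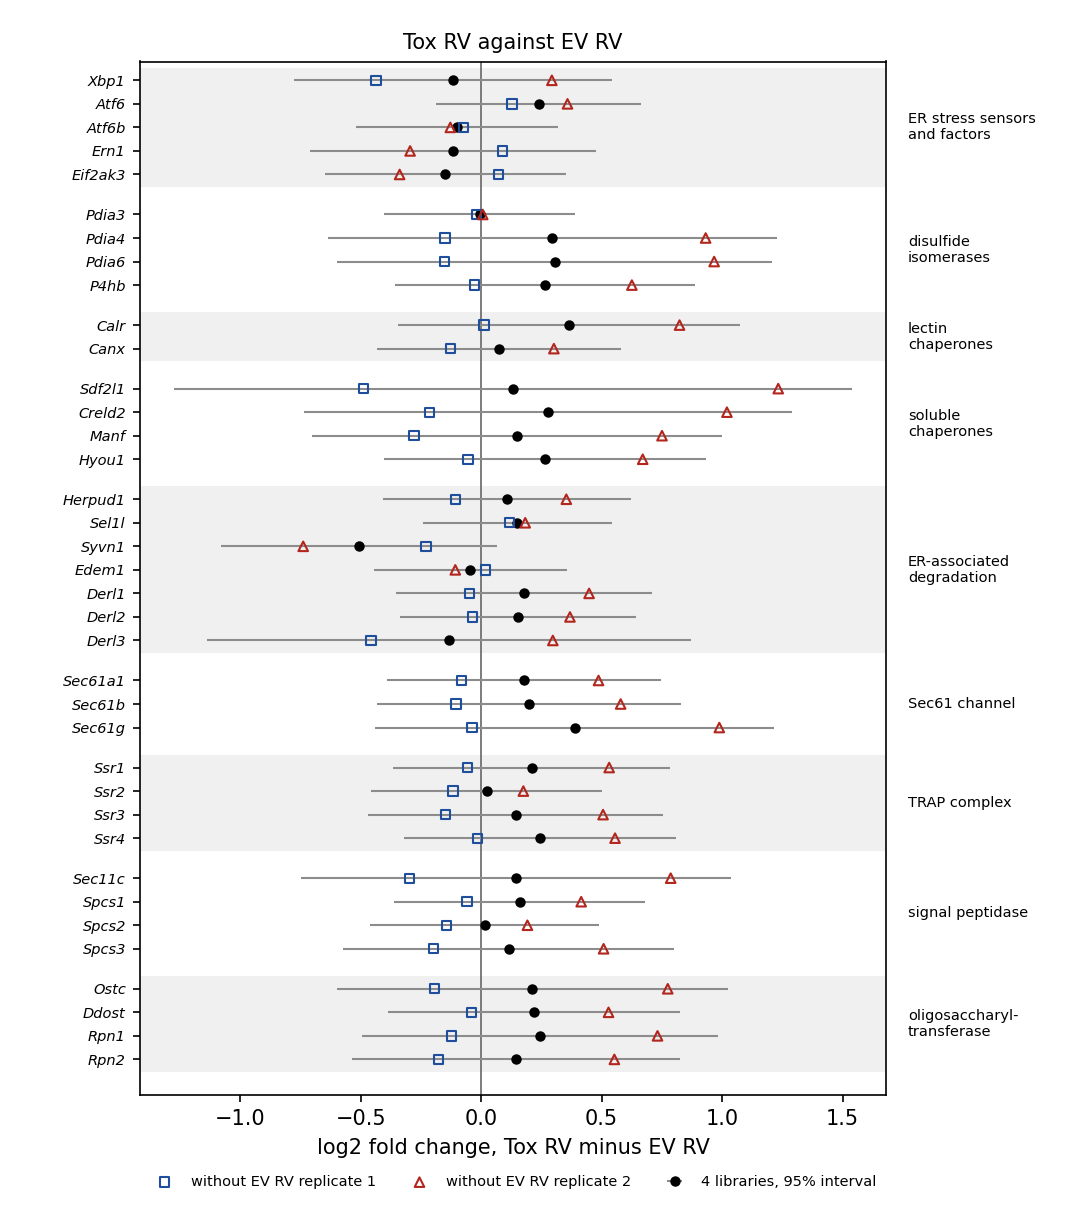
Log2 fold change of Tox RV minus EV RV for the 37 genes (black points with 95% intervals, 4 libraries), with the value without EV RV replicate 1 (open blue squares) and without EV RV replicate 2 (open red triangles). All 37 intervals cross 0, and for most chaperone and translocation genes the squares lie at or left of 0 and the triangles right of the black points.

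The 6 genes with an ERSE in the promoter window had a median log2 fold change of 0.18, beside 0.15 for the 22 genes with a window but no ERSE, and a median difference of EV RV replicate 2 minus replicate 1 of 0.77, beside 0.56. Within the 6, that difference ran from -0.52 in Syvn1 to 1.22 in Creld2, so genes with the same element lay on opposite sides of 0. Herpud1, with ERSE-II, had a difference of 0.45.

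A further 70 genes of the same pathways were put in a second list, of which 69 were listed and 68 tested. None passed the test in either direction, 49 of 68 had a positive log2 fold change, against 50.4% of all genes, the median was 0.14, and 51 of 68 were lowest in EV RV replicate 1, against 37% of all genes. Both Tox RV libraries were above both EV RV libraries for 18 of the 68 and below them for 6, against 18.6% and 17.4% of all genes. Hspa5, which encodes BiP, the chief ER chaperone and the classic readout of the response, was at 904 and 1683 CPM in EV RV and 1509 and 1627 CPM in Tox RV (0.28, SE 0.30, adjusted p = 0.902). Hsp90b1, which encodes GRP94, was at 312 and 666 CPM in EV RV and 451 and 616 CPM in Tox RV (0.13, SE 0.38). Both thus had the pattern of the 37 genes, with EV RV replicate 1 lowest. An unadjusted p under 0.05 was found for 3 of the 68, close to the 3.62% of all genes, and each had an adjusted p of 0.897. Tram2, a partner of the translocon, was low throughout, at 2.75 and 1.29 CPM in EV RV and 0.759 and 0.713 CPM in Tox RV (-1.44, SE 0.47). Erlec1, a lectin of ER-associated degradation, was at 22.0 and 11.9 CPM in EV RV and 9.34 and 9.56 CPM in Tox RV (-0.84, SE 0.32). Chac1, a glutathione-degrading target of the PERK branch, was at 8.75 and 10.8 CPM in EV RV and 7.03 and 5.88 CPM in Tox RV (-0.60, SE 0.23). In all 3 both Tox RV libraries were below both EV RV libraries.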

How the data were processed

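RNA-seq was analysed in 4 libraries of sorted GFP+ CD4 T cells, 2 of EV RV and 2 of Tox RV, assigned from the sample labels. Reads were quality-checked by the authors (FastQC), mapped to mm10 transcripts with bowtie and quantified with RSEM; versions are not given in the sources used here. The deposited expected counts are RSEM's estimated counts of fragments per gene, the deposited TPM values are scaled to 1000000 per library, and the deposited length column gives mean transcript lengths in bases. A deposited table of the whole series was not used.

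Expected counts were rounded and tested in R 4.3.3 with edgeR 4.0.16 (filterByExpr, minimum count 10, TMM, glmQLFit and glmQLFTest, two-sided, no block), with Benjamini-Hochberg adjustment over 14143 genes and a threshold of 0.05. The 95% intervals use the fit's 5.77 degrees of freedom. P-values measure the spread between 2 libraries per group. DESeq2 1.42.0, limma 3.58.1 on log2(TPM + 1) or log2(TPM + 0.1), other scalings, no filter, a replicate block and leaving out each library were alternatives. Scripts were tested on simulated data. A chi-square comparison of replicates, made only to look for duplicate libraries, found none (416 and 75.5 per degree of freedom).

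Motifs were counted with Python 3.11.15 in RefSeq promoter windows, positions and transcripts are from GENCODE M21, and near-identical copies (95% identity over 150 bases) were searched with blastn 2.17.0; the only hits, for Derl2 and Spcs1, were overlapping genes. The 37 genes and the lists were chosen with earlier results of these data known. All 37 genes are named; values per library are given for the sensors and, in each role, for the gene with the highest TPM and that with the largest log2 fold change.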

Additional observations from a re-analysis of the deposited data

How the results depend on the processing

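Precision was limited by 2 libraries per group and, for Derl3, by 56 to 169 counts per library. Genes passing the test in all numbered 24 with DESeq2, 22 without the filter on low counts and 16 with a replicate block, and 1 to 600 with single libraries left out. Of the 37 genes, 0 passed with each other scaling, unit, filter and test, and 0 to 3 with single libraries left out; 0 to 27 then had an unadjusted p under 0.05. Replicate numbers are shared between the groups but are not stated to mark pairs. The difference between the EV RV replicates correlated with that between the Tox RV replicates at 0.38 over all genes tested and 0.76 over the 37. There were only 2 pairs. With the replicate block in edgeR, 1 of the 37 had an unadjusted p under 0.05, against 1232 of all 14143 genes tested. That 1 was Syvn1 (log2 fold change -0.49, adjusted p = 0.49). The median over the 37 was then 0.20, beside 0.011 over all genes. With single libraries left out, the median ran from -0.10 to 0.51 over the 37 and from -0.03 to 0.38 over the other pathway genes. Scaling by library totals moved the median of all genes to 0.12, and the 37 to 0.26, and made the log2 fold changes of Atf6b (0.025), Ern1 (0.015), Pdia3 (0.12) and Edem1 (0.082) positive; relative to the shifted median these 4 stayed below 0. Pdia3 was also positive (0.0084) without the filter. Ssr2 and Spcs2 turned negative with library totals without Rn45s (-0.015 and -0.022), with limma on log2(TPM + 1) (-0.058 and -0.061) and on log2(TPM + 0.1) (-0.058 and -0.061). The other alternatives that kept all libraries changed no sign among the 37.

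Leaving out a library leaves its group with 1, which is then assumed to vary like the other group. This changed the sign of 32 of the 37 log2 fold changes, and leaving out EV RV replicate 1 did so for 29. The lowest and highest values were for Xbp1 (-0.44 to 0.29), Ern1 (-0.34 to 0.089), Eif2ak3 (-0.34 to 0.072), Pdia3 (-0.078 to 0.061), Pdia4 (-0.15 to 0.93), Pdia6 (-0.15 to 0.97), P4hb (-0.026 to 0.63), Canx (-0.13 to 0.30), Sdf2l1 (-0.49 to 1.23), Creld2 (-0.21 to 1.02), Manf (-0.28 to 0.75), Hyou1 (-0.055 to 0.67), Herpud1 (-0.11 to 0.35), Edem1 (-0.11 to 0.019), Derl1 (-0.049 to 0.45) and Derl2 (-0.035 to 0.37). For the rest they were Derl3 (-0.46 to 0.30), Sec61a1 (-0.081 to 0.49), Sec61b (-0.10 to 0.58), Sec61g (-0.037 to 0.99), Ssr1 (-0.056 to 0.53), Ssr2 (-0.12 to 0.18), Ssr3 (-0.15 to 0.51), Ssr4 (-0.014 to 0.56), Sec11c (-0.30 to 0.79), Spcs1 (-0.059 to 0.42), Spcs2 (-0.14 to 0.19), Spcs3 (-0.20 to 0.51), Ostc (-0.19 to 0.77), Ddost (-0.039 to 0.53), Rpn1 (-0.12 to 0.73) and Rpn2 (-0.18 to 0.55). The cause was not tested.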

Other observations

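Among 13 further genes that sense or relay ER stress or act in the PERK branch, 6 had a positive and 7 a negative log2 fold change, with a median of -0.06, and none passed the test. Atf4, the transcription factor whose translation PERK raises, was at 204 and 319 CPM in EV RV and 256 and 241 CPM in Tox RV (log2 fold change -0.07, SE 0.25). Its target Ddit3, which encodes CHOP, was at 12.9 and 20.2 CPM in EV RV and 18.2 and 15.9 CPM in Tox RV (0.04, SE 0.26). Trib3, another target, was at 13.5 and 24.4 CPM in EV RV and 16.2 and 15.4 CPM in Tox RV (-0.27, SE 0.30). In these 3 genes both Tox RV libraries lay between the EV RV libraries, of which replicate 1 was the lower. Mbtps1, a protease that cuts ATF6, was at 149 and 111 CPM in EV RV and 117 and 114 CPM in Tox RV (-0.17, SE 0.20). Mbtps2, which also cuts ATF6, was at 10.2 and 9.62 CPM in EV RV and 11.8 and 10.9 CPM in Tox RV (0.20, SE 0.19). These genes were picked from the list after their values were seen.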
